A study of Homo sapiens with 6 samples.

Results

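The collagens are the proteins whose helical chains build most of the extracellular matrix. Their genes were taken as every row of the deposited count table with a symbol made of COL, a type number, the letter A and a chain number. The rule found 44 genes among 21619 entries, and each has 1 entry. PolyA RNA had been sequenced from HT1080, a human fibrosarcoma line derived from connective tissue, in 2 groups of 3 libraries. The control libraries are labelled wild type (WT), and the others come from HT1080 cells that stably overexpress PGK1, the glycolytic enzyme phosphoglycerate kinase 1 (PGK1_OE). The labels do not say whether the WT cells carry an empty vector, whether PGK1_OE is a clone or a pool, which promoter drives the introduced PGK1, or whether replicates were separate cultures. The p-values thus weigh a difference against library-to-library spread alone, and that spread may be technical.

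Collagen chains consist largely of repeats with glycine at regular intervals, and chains wind around each other into a helical molecule. Fibrillar collagens assemble into the banded fibrils that give tissue its tensile strength, and type I is the main product of most fibroblasts. Type IV collagen forms the sheet-like network of basement membranes, type VI forms beaded filaments around cells, and type VII forms the fibrils that anchor epithelium to the dermis. The remaining types coat fibrils, form hexagonal nets or span the cell membrane.

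The libraries held 34425162 to 40538274 counts, and all carried 1 batch label. PGK1 stood at 519 to 527 CPM (counts per 1000000, scaled by library) in WT and at 12218 to 13331 CPM in PGK1_OE. Of the mesenchymal markers, vimentin (VIM) was abundant in both groups, with a mean of 1889 CPM among WT libraries and 3567 among PGK1_OE libraries, whereas the fibroblast surface marker THY1 was at 0.465 and 0.0545 CPM. The epithelial markers EPCAM, KRT5 and KRT14, the leukocyte marker PTPRC and the muscle factor MYOD1 had 0 counts in every library. Summed over their lists, the 9 mesenchymal markers ranged from 2566 to 2975 CPM in WT and 4911 to 4970 in PGK1_OE, the 5 endothelial markers from 283 to 298 and 251 to 267, the 5 blood cell markers from 215 to 239 and 220 to 248, and the 5 muscle markers from 3.403 to 3.99 and 2.05 to 2.69. Single markers did not follow these sums: of the mesenchymal genes 4 rose and 3 fell, among the latter SNAI2 (60.8 to 19.0 CPM) and CDH2 (153 to 105 CPM). TIE1 made up most of the endothelial sum and fell from 288 to 246 CPM, whereas PECAM1 rose from 3.15 to 10.3 CPM. The 7 epithelial markers together summed to between 4.72 and 5.91 CPM in WT and between 1.12 and 3.35 CPM in PGK1_OE. Of the 3 with enough counts to test, 2 fell and CLDN4 overlapped between groups. ESRP1 had 94, 83 and 80 counts in WT and 6, 0 and 0 in PGK1_OE, and CDH1 had 17, 28 and 16 against 0 in each. CD68 made up most of the blood cell sum (227 and 234 CPM). MYH2 made up most of the muscle sum and fell from 3.65 to 2.05 CPM. The part of these markers in the collagen values was not tested. Across all entries 14322 passed a filter on low counts, and 71.2% of these differed between the groups by edgeR's quasi-likelihood test at a Benjamini-Hochberg adjusted p under 0.05. With so wide a shift, a collagen that passed is not unusual in these data. In bulk RNA, fewer cells that express a gene and less of its RNA per cell cannot be told apart.

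HT1080 cells expressed a narrow set of collagens. Levels of different genes are compared as FPKM, the authors' values per kilobase of gene length, scaled for library size. Of the 44 genes, 13 had a mean FPKM of at least 1 in either group, 31 stayed under 1 in both, and 3 of these 31 (COL4A4, COL9A1 and COL19A1) had 0 counts in all 6 libraries, which allows up to 0.0740 to 0.0871 CPM per library. The 3 leading genes were COL6A3, COL13A1 and COL4A2, which together held 72.8% of all collagen FPKM in WT and 71.1% in PGK1_OE. The fibrillar genes held 5.52% ± 0.204 (SD, n = 3) of collagen FPKM in WT and 5.06% ± 0.0646 in PGK1_OE. The basement membrane genes of type IV held 29.04% ± 1.24 and 31.4% ± 1.66, and all other types 65.4% ± 1.45 and 63.5% ± 1.72. Fibrillar shares of the PGK1_OE libraries all lay below those of WT, while the FPKM shares of the other classes overlapped between groups. These other comparisons depended on the scale. As shares of collagen read counts, the basement membrane genes held 31.2% in WT and 31.1% in PGK1_OE, and the other types 61.5% and 62.8%, the latter without overlap. Per kilobase of GENCODE exons, the basement membrane genes held 22.9% and 24.7%, also without overlap. These are shares of a collagen total that was itself higher in PGK1_OE, so they do not give the direction of a class's level. Summed CPM of the fibrillar genes ranged from 146 to 148 in WT and from 153 to 162 in PGK1_OE. For the basement membrane genes the sum ranged from 622 to 631 in WT and from 796 to 807 in PGK1_OE.

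**Figure D1:**
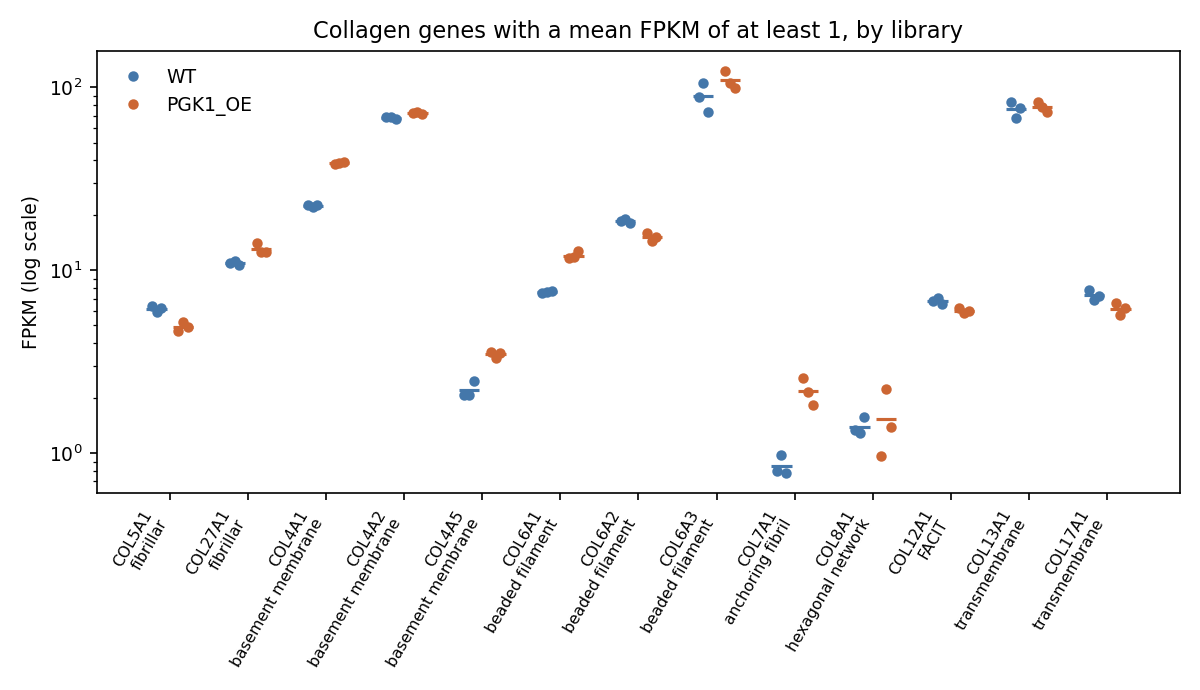
FPKM on a log axis of the 13 collagen genes with a mean of at least 1, with 1 point per library (3 WT, 3 PGK1_OE), a line at each group mean and the collagen class under each name. COL6A3, COL13A1 and COL4A2 stand highest in both groups, and COL7A1 shows the widest gap between groups.

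Collagen genes together took 0.204% ± 0.00184 of all counts in WT and 0.254% ± 0.00203 in PGK1_OE (SD, n = 3), and the 2 groups did not overlap. Among the 27 collagen genes that passed the filter, 9 rose, 6 fell and 12 did not pass the test, so 55.6% were called against 71.2% of all entries tested. Among all entries 35.4% rose and 35.8% fell. The median log2 fold change of the 27 genes was 0.11, beside -0.02 over all entries. Normalised CPM of the groups did not overlap for 20 of the 27 (74.1%), 11 of them higher in PGK1_OE and 9 lower, against 76.4% of all entries. A change of at least 2-fold was called for 4 of the 27 collagens, against 24.1% of all entries. Of the 13 genes with a mean FPKM of at least 1, 7 rose, 4 fell and 2 did not pass (84.6% called), where 78.2% of all entries at that level were called. Values in parentheses below are log2 fold changes, positive where PGK1_OE was higher, with SE and edgeR adjusted p-values.

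**Figure D2:**
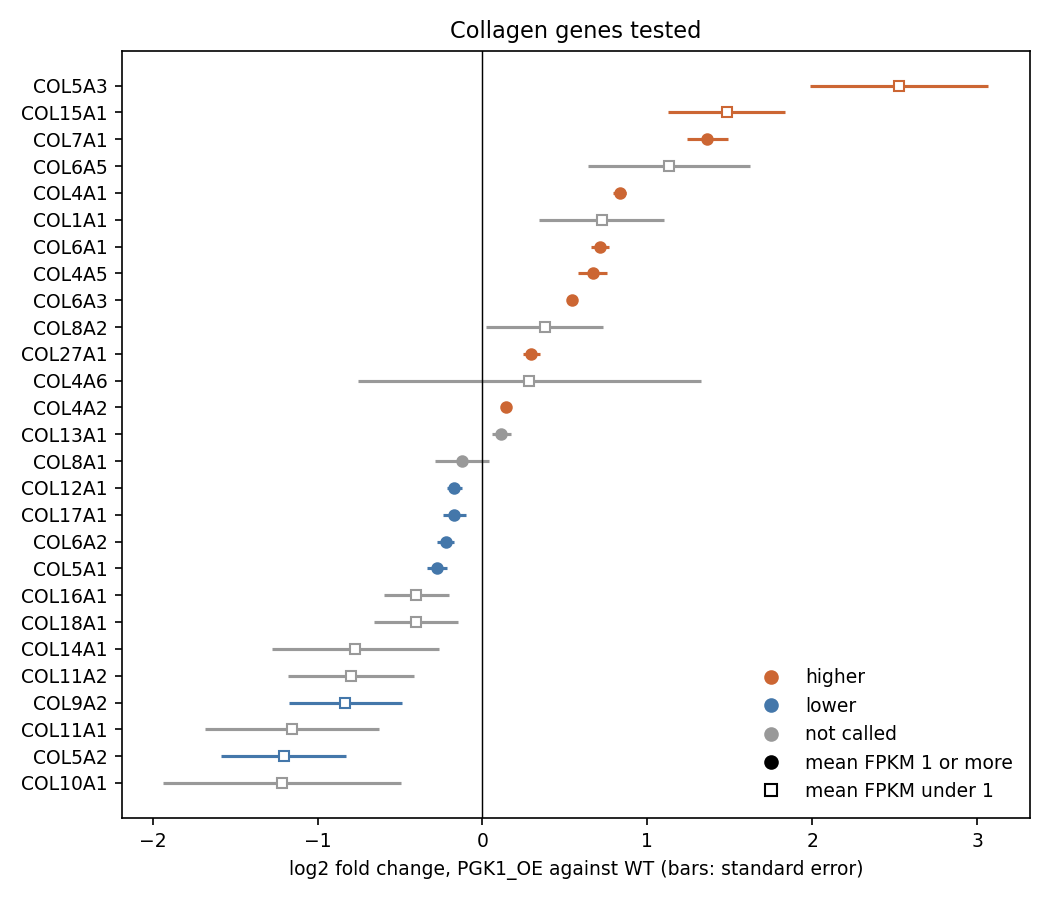
The log2 fold change, PGK1_OE against WT, of the 27 collagen genes tested, with bars for the standard error, colour for the call and open squares for genes with a mean FPKM under 1. The 9 genes called higher range from COL4A2 (0.14) to COL5A3 (2.53), and most genes with wide bars have few counts.

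The fibrillar collagens that define fibroblasts were almost absent. COL1A1, the main chain of type I collagen, had 21, 14 and 27 counts in WT against 42, 31 and 34 in PGK1_OE, a mean FPKM of 0.0868 and 0.157. Although the PGK1_OE values all lay above those of WT, the difference did not pass (0.72, SE 0.38, edgeR adjusted p = 0.108). COL1A2, the second chain of type I, had 0 counts in each WT library and 2, 0 and 10 in PGK1_OE, and COL3A1, the chain of type III, had 7 counts in PGK1_OE replicate 1 and 0 elsewhere. COL2A1, the cartilage collagen, had between 9 and 14 counts in WT and between 0 and 4 in PGK1_OE, and did not pass the filter on low counts. With no such filter it was called lower (-3.05, edgeR adjusted p = 0.0450), the single call among the filtered-out collagens in that fit. It was also called lower without WT replicate 2 (adjusted p = 0.0296) or PGK1_OE replicate 2 (0.00353), but not without PGK1_OE replicate 1 (0.0567) or 3 (0.0569).

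COL27A1 and COL5A1 were the fibrillar genes with appreciable RNA, and they moved in opposite directions. COL27A1, a fibrillar chain known from cartilage, had FPKM of 10.9, 11.3 and 10.7 in WT against 14.1, 12.6 and 12.6 in PGK1_OE. It rose 1.23-fold (0.30, SE 0.05, edgeR adjusted p = 2.10e-04), with no overlap between groups. COL5A1, a chain of type V collagen, which starts and limits the growth of type I fibrils, had 6.37, 5.89 and 6.21 FPKM in WT and 4.63, 5.24 and 4.91 in PGK1_OE. It fell 1.21-fold (-0.27, SE 0.06, edgeR adjusted p = 0.00174), again without overlap.

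The partner chains of COL5A1 were scarce and diverged. COL5A2 had 30, 43 and 51 counts in WT against 15, 21 and 20 in PGK1_OE, a fall (-1.20, SE 0.38, edgeR adjusted p = 0.0139) that did not pass without WT replicate 3 (adjusted p = 0.0746) or PGK1_OE replicate 1 (0.0540). COL5A3 had 3, 4 and 5 counts in WT and 37, 21 and 17 in PGK1_OE. This was the largest fitted rise among the collagens tested (2.53, SE 0.54, edgeR adjusted p = 0.00130), at no more than 0.133 FPKM in any library. The minor fibril chains COL11A1 and COL11A2 were lower in all PGK1_OE libraries without passing (edgeR adjusted p = 0.0706 and 0.0825), and COL24A1 had at most 9 counts in a library.

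Type IV collagen, the basement membrane scaffold, rose in 3 of its 4 tested genes. The 6 type IV genes lie in 3 head-to-head pairs, COL4A1 with COL4A2, COL4A3 with COL4A4, and COL4A5 with COL4A6. COL4A1 (chromosome 13, 110148963 to 110307233, minus strand, GRCh38) and COL4A2 (110305812 to 110513209, plus strand) encode the chains of the common type IV molecule. RefSeq places their starts 126 bases apart, which is why the letters between them are shown. GENCODE exons cover 124 of these bases, so only a pair of short runs is given, on the plus strand of GRCh38.p14. Capitals mark a CCAAT box in the first, at chr13:110307167-110307196, and a GC box (GGGCGG) in the second, at chr13:110307207-110307236.

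COL4A1-COL4A2, CCAAT box: gggccgagctccCCAATttgttggcgctgc

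COL4A1-COL4A2, GC box: ccggcggtgcgcGGGCGGcgcctcaaaggg

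The neighbours with these adjoining starts did not change to the same extent. COL4A1 had FPKM of 22.8, 22.1 and 22.9 in WT against 38.1, 38.6 and 39.1 in PGK1_OE, a 1.78-fold rise (0.83, SE 0.04, edgeR adjusted p = 2.86e-09). COL4A2 had 68.5, 69.0 and 67.3 FPKM in WT against 72.3, 73.6 and 71.8 in PGK1_OE, a 1.10-fold rise (0.14, SE 0.03, edgeR adjusted p = 0.00170). The groups did not overlap for either gene, but the step was far wider for COL4A1. For every COL4A2 count there were 0.336 ± 0.00821 COL4A1 counts in WT and 0.542 ± 0.0112 in PGK1_OE (SD, n = 3). A two-sided exact permutation test of this log ratio gave p = 0.10, the smallest that 3 against 3 libraries allow, and 0.125 after adjustment over the 5 chain ratios examined.

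COL4A5 and COL4A6 encode chains of other type IV molecules, found among other places in the kidney and in smooth muscle. RefSeq places their starts 379 bases apart on chromosome X. The 250 bases before the COL4A5 start, on the side of COL4A6, are shown because COL4A5 rose while COL4A6 was barely detected. They lie at chrX:108439588-108439837 on the plus strand, and capitals mark 2 CCAAT boxes, one on each strand.

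COL4A5 upstream: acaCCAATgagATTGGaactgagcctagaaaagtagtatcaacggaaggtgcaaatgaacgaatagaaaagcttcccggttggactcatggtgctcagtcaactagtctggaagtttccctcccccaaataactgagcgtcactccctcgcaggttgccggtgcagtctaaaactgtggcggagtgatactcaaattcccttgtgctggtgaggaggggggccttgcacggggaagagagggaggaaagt

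COL4A5 had FPKM of 2.09, 2.07 and 2.48 in WT against 3.58, 3.30 and 3.53 in PGK1_OE. It rose 1.59-fold (0.67, SE 0.09, edgeR adjusted p = 2.97e-05) with no overlap. The ratio of COL4A5 to COL4A1 counts was 0.0944 ± 0.00733 in WT and 0.0845 ± 0.00480 in PGK1_OE (two-sided exact permutation p = 0.20, n = 3). COL4A6 had 12, 19 and 22 counts in WT and 32, 38 and 0 in PGK1_OE. Its PGK1_OE replicate 3 stood apart from the other two, and the difference did not pass with it (0.28, SE 1.04, edgeR adjusted p = 0.822) or without it (0.85, adjusted p = 0.134). In the remaining pair COL4A3 had at most 6 counts in a library and COL4A4 had none.

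**Figure D3:**
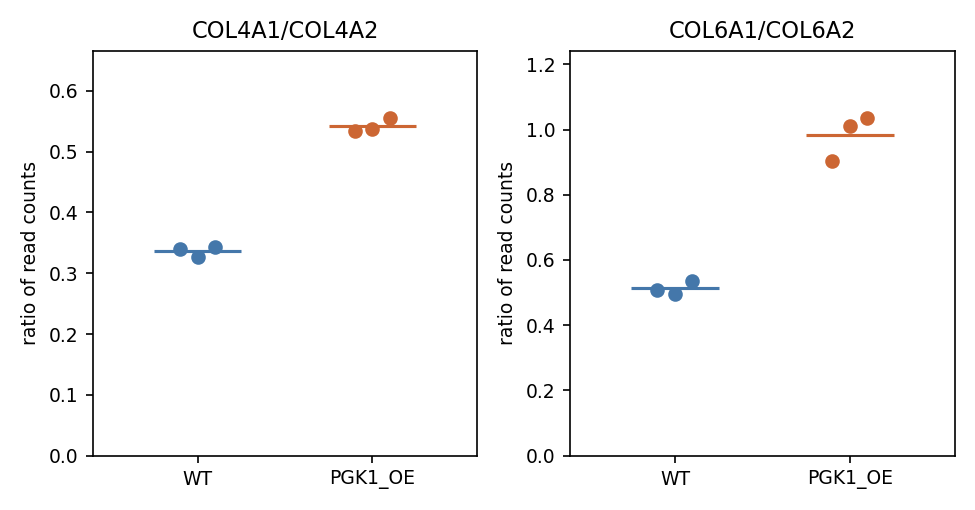
Ratio of read counts of COL4A1 to COL4A2 (left) and of COL6A1 to COL6A2 (right), with 1 point per library and a line at each group mean, on axes that start at 0. In both panels the 3 PGK1_OE libraries lie above the 3 WT libraries.

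Type VI collagen, built from an alpha 1, an alpha 2 and usually an alpha 3 chain, showed a rise of COL6A1 and COL6A3 and a fall of COL6A2. COL6A1 (chromosome 21, 45981737 to 46005050) had FPKM of 7.49, 7.57 and 7.72 in WT against 11.7, 11.8 and 12.7 in PGK1_OE, a 1.64-fold rise (0.71, SE 0.06, edgeR adjusted p = 3.73e-07). COL6A2 lies 93046 bases further along the same strand (46098097 to 46132849), and had 18.7, 19.2 and 18.1 FPKM in WT and 16.1, 14.5 and 15.3 in PGK1_OE. It fell 1.17-fold (-0.22, SE 0.05, edgeR adjusted p = 0.00249). Neither gene's groups overlapped. COL6A1 counts per COL6A2 count went from 0.513 ± 0.0202 to 0.983 ± 0.0708 (SD, n = 3), with the same exact permutation p of 0.10 and 0.125 adjusted.

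COL6A2 was the only type VI chain to fall among those with a mean FPKM of at least 1, so the bases before its start are shown. They lie at chr21:46097862-46098096 on the plus strand and stop where the first annotated exon begins. Capitals mark 4 GC boxes, one of them on the minus strand, and a TATA box (TATAAA).

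COL6A2 upstream: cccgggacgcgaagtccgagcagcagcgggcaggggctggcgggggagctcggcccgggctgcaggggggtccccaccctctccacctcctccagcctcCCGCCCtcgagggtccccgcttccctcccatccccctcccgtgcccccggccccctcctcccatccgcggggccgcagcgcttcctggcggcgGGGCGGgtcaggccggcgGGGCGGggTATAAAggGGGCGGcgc

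COL6A3 (chromosome 2, 237324003 to 237414375, minus strand) was the most abundant collagen mRNA by mean FPKM in both groups. Its long chain gives rise to the secreted fragment endotrophin. In WT replicate 3, however, COL6A3 had 73.1 FPKM and COL13A1 77.3. COL6A3 had 30055, 27334 and 29181 counts in WT and 46023, 46211 and 39841 in PGK1_OE, or 788 ± 12.8 and 1148 ± 17.4 CPM (SD, n = 3). In counts it rose 1.46-fold (0.54, SE 0.03, edgeR adjusted p = 3.44e-08). On the FPKM scale the same libraries read 89.1, 106 and 73.1 in WT and 123, 105 and 99.3 in PGK1_OE, so that WT replicate 2 lay above PGK1_OE replicates 2 and 3. With limma on log2(FPKM + 1) the difference was 0.30 and did not pass (adjusted p = 0.0723). FPKM per unadjusted CPM of COL6A3 varied 1.49-fold between libraries and that of COL8A1 2.00-fold, where the other 11 genes at this level varied by at most 1.12-fold. Counts per kilobase of merged GENCODE exons, scaled to 1000000 counts, gave 40.4, 39.4 and 40.6 in WT and 58.6, 59.3 and 57.6 in PGK1_OE.

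**Figure D4:**
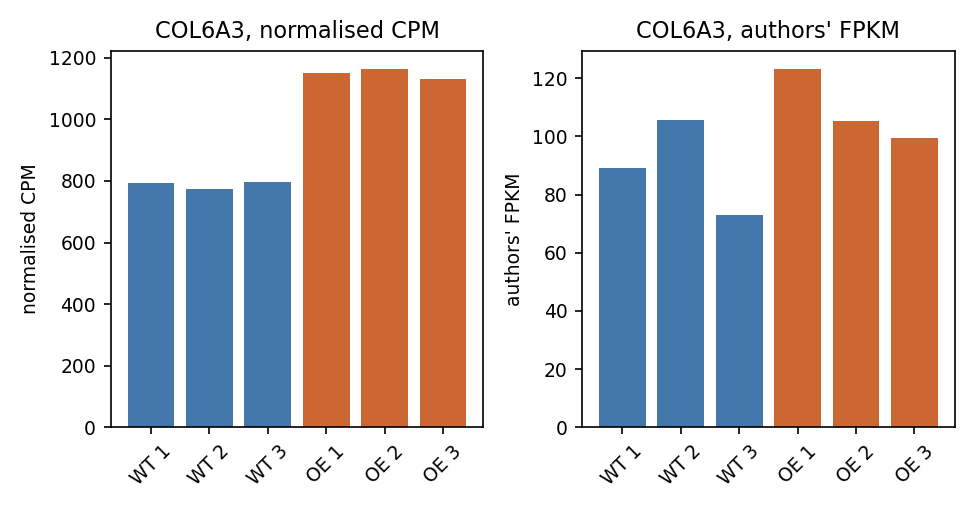
COL6A3 in each library as normalised CPM (left) and as the authors' FPKM (right), with bars from 0, WT in blue and PGK1_OE in orange. The CPM of the PGK1_OE libraries all exceed those of WT, whereas the FPKM of the groups overlap.

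The other type VI chains were near the floor. COL6A5 had 30, 10 and 8 counts in WT and 40, 42 and 28 in PGK1_OE (1.13, SE 0.49, edgeR adjusted p = 0.0586). It passed without WT replicate 1 (1.92, edgeR adjusted p = 0.00584). COL6A6 had between 3 and 12 counts in a library and was not tested.

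COL7A1, the anchoring fibril collagen mutated in dystrophic epidermolysis bullosa, rose most among the 13 genes. It had 300, 298 and 262 counts in WT and 931, 785 and 615 in PGK1_OE, or FPKM of 0.803, 0.976 and 0.780 against 2.59, 2.15 and 1.83. This is a 2.57-fold rise (1.36, SE 0.12, edgeR adjusted p = 1.12e-06) with no overlap between groups. It was the single change of at least 2-fold called among the 13, where 22.3% of all entries at that level had one. The 250 bases before its RefSeq start (chr3:48595330-48595579, minus strand, printed along the gene) are shown for that reason, with 3 GC boxes and a TATA box in capitals, of which the last GC box and the TATA box are on the opposite strand.

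COL7A1 upstream: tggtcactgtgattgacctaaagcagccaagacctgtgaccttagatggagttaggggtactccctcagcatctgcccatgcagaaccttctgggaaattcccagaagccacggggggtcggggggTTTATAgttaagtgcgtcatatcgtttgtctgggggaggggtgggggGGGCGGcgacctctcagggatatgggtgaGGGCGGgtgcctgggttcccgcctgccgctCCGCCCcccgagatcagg

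A set of 6 motifs was searched on both strands of the 250 bases before RefSeq starts, in which 32 of the 44 collagens and 27305 genes in all had an entry. A GC box (GGGCGG) was found before 56.2% of these collagens and 42.3% of all genes, a CCAAT box before 28.1% and 33%, and a TATA box (TATAAA) before 15.6% and 11.1%. The AP-1 letters TGANTCA were found before 0 of the 32 collagens and 6.6% of all genes. The hypoxia response core ACGTG stood before 15.6% and 18.7%, and the SMAD letters CAGAC before 34.4% and 37.8%. A match is a run of letters and no evidence of a factor's binding.

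Of the 4 membrane-spanning collagens, COL13A1 and COL17A1 were expressed, and neither differed by more than 1.13-fold. COL13A1, found at cell-matrix junctions and at the neuromuscular synapse, had FPKM of 83.6, 68.2 and 77.3 in WT against 83.5, 77.7 and 73.7 in PGK1_OE. The groups overlapped and the difference did not pass (0.11, SE 0.06, edgeR adjusted p = 0.110), though it did without WT replicate 1 (0.18, adjusted p = 0.0196). COL17A1, a hemidesmosome component of basal epithelial cells, had 7.81, 6.85 and 7.24 FPKM in WT and 6.59, 5.71 and 6.23 in PGK1_OE. Its 1.13-fold fall (-0.17, SE 0.07, edgeR adjusted p = 0.0432) was called although normalised CPM overlapped between groups. That call was lost without WT replicate 1 (adjusted p = 0.191) or 3 (0.103) and without PGK1_OE replicate 2 (0.158) or 3 (0.0889). With all libraries kept, it was also lost with DESeq2 (adjusted p = 0.0562), limma-voom (0.0533) and edgeR with no low-count filter (0.0565). It held in 8 of 16 alternatives, over which the adjusted p ranged from 0.0137 to 0.191. COL23A1 and COL25A1, the other membrane collagens, had at most 3 and 13 counts in a library.

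Collagens that coat fibrils (FACIT) had 1 well-expressed member. COL12A1, which links fibrils in dense connective tissue, had FPKM of 6.83, 7.08 and 6.57 in WT against 6.20, 5.82 and 5.97 in PGK1_OE, a 1.13-fold fall (-0.17, SE 0.05, edgeR adjusted p = 0.00525) without overlap. COL9A2, a cartilage chain, had 36, 36 and 32 counts in WT and 20, 22 and 19 in PGK1_OE. Its fall (-0.83, SE 0.34, edgeR adjusted p = 0.0484) sat at the threshold, and leaving out any 1 library gave adjusted p between 0.0900 and 0.126. The call was also lost on all libraries with DESeq2 (adjusted p = 0.0983) and edgeR with no low-count filter (0.0838). It held in 3 of 13 alternatives. COL16A1 had 121 to 138 counts in WT and 84 to 117 in PGK1_OE and did not pass (-0.40, SE 0.20, edgeR adjusted p = 0.0890). COL14A1 did not pass either (edgeR adjusted p = 0.195), and the other 6 genes of this class were not tested.

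The net-forming collagens gave no call. COL8A1, a short chain of vascular and corneal matrix, had 306, 217 and 254 counts in WT and 211, 276 and 254 in PGK1_OE, with overlapping groups (-0.12, SE 0.16, edgeR adjusted p = 0.523). COL8A2 and COL10A1, the latter the collagen of hypertrophic cartilage, stayed at or below 0.219 FPKM in every library. Of the multiplexins, whose C-terminal fragments include endostatin, COL15A1 rose from 15, 20 and 21 counts to 52, 74 and 40 (1.48, SE 0.36, edgeR adjusted p = 0.00276). COL18A1 had 93, 98 and 93 counts in WT and 94, 55 and 75 in PGK1_OE and did not pass (-0.41, SE 0.26, edgeR adjusted p = 0.177).

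Low expression set what could be tested. The 17 collagens that did not pass the filter had at most 17 counts in a library, and 14 of them had a count in some library. Of the 14 tested genes with a mean FPKM under 1, 2 rose (COL5A3, COL15A1), 2 fell (COL5A2, COL9A2) and 10 did not pass. Thus 28.6% were called. Of all 14322 entries tested 10195 (71.2%) were called, and 9200 of these calls fell among the 11759 entries with a mean FPKM of at least 1. The 71.2% is therefore not a background at the same level for collagens under 1 FPKM. How reads were assigned to strands is not given in the sources used here, so genes that overlap others carry uncertain values. COL4A1 and COL4A2 overlap each other on opposite strands and COL5A1 overlaps COL5A1-AS1, in neither case with shared exonic bases in GENCODE. COL4A2 does share exonic bases with the antisense genes COL4A2-AS1 and COL4A2-AS2. Among the other tested collagens, COL15A1, COL5A3, COL16A1 and COL18A1 share exonic bases with an opposite-strand gene.

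Collagen chains need a set of enzymes and chaperones before they leave the cell, and others that process, bind and degrade them outside it. Of 76 genes in 6 lists 60 were tested, of which 34 rose and 15 fell, so 81.7% were called against 71.2% of all entries, with a median of 0.40. Most of the 60 had a mean FPKM of at least 1, a level at which 78.2% of all entries were called. All 15 genes of prolyl and lysyl modification passed, 11 upward and 4 downward (median 0.79). COLGALT1, which glycosylates hydroxylysine, had 89.3, 80.8 and 88.3 CPM in WT and 202, 200 and 207 in PGK1_OE (1.24, SE 0.05, edgeR adjusted p = 6.91e-10). P4HA1, a catalytic subunit of prolyl 4-hydroxylase, rose from 76.0 ± 0.880 to 154 ± 8.24 CPM (1.02), PPIB, a prolyl isomerase, by 0.72 and the lysyl hydroxylase PLOD1 by 0.96 on the log2 scale. The 4 that fell, named after their values were seen, were P4HA3 (-2.03), PLOD3 (-0.20), COLGALT2 (-0.63) and P3H2, which had 17, 12 and 13 counts in WT and 0, 2 and 0 in PGK1_OE.

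Genes of folding and export split, with 4 of 14 rising and 7 falling (78.6% called, median -0.09). Of all entries tested 71.2% were called, and 78.2% of those with a mean FPKM of at least 1. MIA2 and MIA3, receptors that load bulky procollagen into transport vesicles, fell from 109 ± 4.39 to 39.1 ± 2.32 CPM (-1.48, SE 0.06, edgeR adjusted p = 7.59e-10) and from 86.3 ± 1.71 to 58.7 ± 2.07 CPM (-0.56). TFG, which organises the export sites, rose (0.79), as did the coat subunit SEC23A (0.49). Of 4 tested genes of propeptide processing 2 rose (50% called), the C-proteinase BMP1 (0.65) and the proprotein convertase FURIN (0.61). TLL2 (0.26) and PCOLCE (-0.04) did not pass. Of 6 tested genes of crosslinking and fibril assembly, all with a mean FPKM of at least 1, 4 rose and 1 fell (83.3% called, median 0.33). The 4 were the lysyl oxidases LOX (0.65), LOXL1 (1.58, from 10.5 ± 0.855 to 31.5 ± 1.87 CPM), LOXL2 (0.18) and LOXL3 (0.47).

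Among 10 tested collagen receptors 5 rose and 2 fell (median 0.10), so 70% were called, near the 71.2% of all entries. The tyrosine kinase receptors DDR1 and DDR2 moved in opposite directions. DDR2, the receptor typical of mesenchymal cells, had 327, 285 and 324 CPM in WT and 96.1, 96.7 and 100.5 in PGK1_OE (-1.68, SE 0.05, edgeR adjusted p = 2.88e-10). DDR1, typical of epithelial cells, had 27.8, 23.8 and 28.9 CPM in WT and 80.6, 75.6 and 73.7 in PGK1_OE (1.51, SE 0.07, edgeR adjusted p = 5.88e-09). ITGA2, the alpha 2 subunit of a collagen-binding integrin, rose from 226 ± 23.8 to 510 ± 22.7 CPM (1.17), and ADGRG1, an adhesion receptor for type III collagen, rose by 1.30. Of 11 tested genes of collagen breakdown and its inhibition 8 rose and 1 fell (81.8% called, median 0.60). Of these 11 genes 10 had a mean FPKM of at least 1, where 78.2% of all entries were called. The 4 with the smallest adjusted p were the proline dipeptidase PEPD (0.58) and the metalloprotease inhibitors TIMP1 (0.86), TIMP2 (0.60) and TIMP3 (0.97). Of the other proteases, named after their values were seen, MMP14 rose from 1448 ± 184 to 2542 ± 98.7 CPM (0.81). CTSK (1.49), MMP1 (0.70) and MMP2 (0.32) also rose, MMP9 fell (-0.65) and MMP13 did not pass (-0.67).

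**Figure D5:**
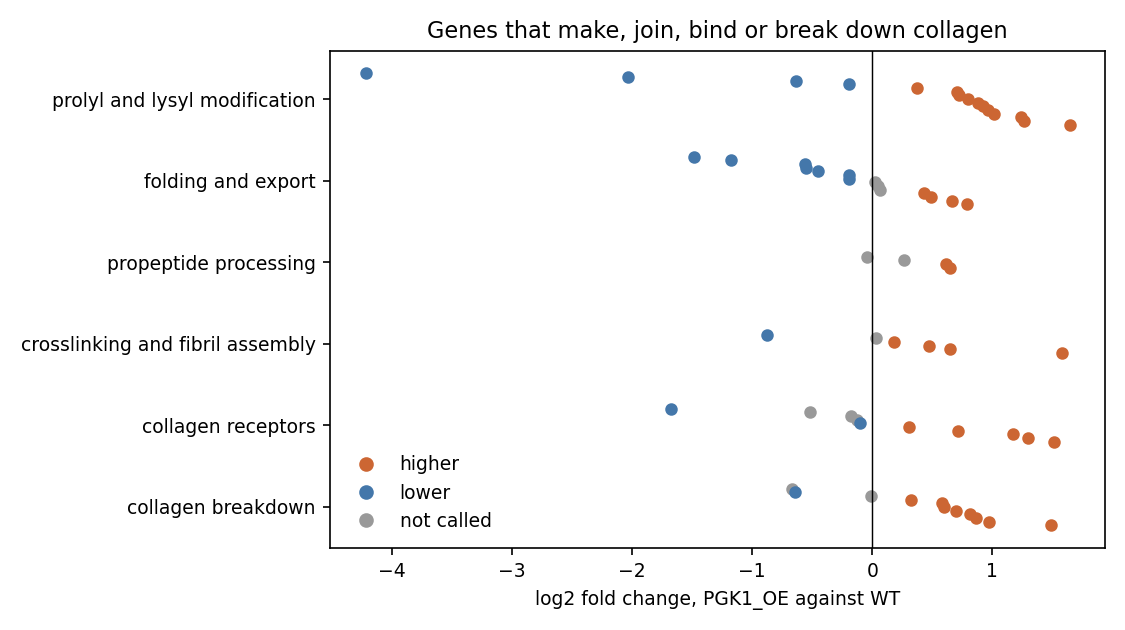
The log2 fold change, PGK1_OE against WT, of 60 tested genes in 6 lists of collagen modification, export, processing, crosslinking, binding and breakdown, with 1 point per gene coloured by call and shifted vertically only to keep points apart. All 15 points of the modification list are called, and the leftmost point, P3H2, rests on 2 counts in PGK1_OE.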

How the data were processed

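RNA-seq of 6 HT1080 libraries, 3 WT and 3 PGK1_OE by their titles, was analysed, with table columns matched through the sample descriptions. The authors deposited raw read counts per gene and FPKM, which they normalised for gene length and library size. The submitters' processing notes name fastp, HISAT and the build hg38. Not given in the sources used here are tool versions, how reads were counted and whether by strand, the gene annotation and the FPKM tool.

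Counts were filtered with filterByExpr, scaled by TMM and tested with edgeR 4.0.16 in R 4.3.3 (robust quasi-likelihood, group as the only term, two-sided), with Benjamini-Hochberg adjustment over 14322 entries and a threshold of 0.05. SE was derived from edgeR's F statistic, as the size of the log2 change over its square root. CPM values are counts per 1000000 scaled by TMM. Depth of 34425162 to 40538274 counts leaves genes with few counts imprecise, and limits from 0 counts use 3 counts and cover counting error only. On simulated data (14188 genes, PGK1_OE against WT) 90.7% of 86 genes changed by a log2 of 1 and 100% of 111 changed by 2 were recovered, and 4.55% of 198 calls were false. The simulation gave every gene the same spread between libraries (a common dispersion of 0.023) and took changed genes from all levels. Its recovery therefore does not apply to collagens with few counts. Within groups, no 2 libraries agreed within sampling noise (the lowest chi-square over its degrees of freedom was 7.67).

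Members and lists were chosen with earlier results of these data known. Named genes are all tested collagens, PGK1 and up to 4 tested members per pathway list with the smallest p. A few further list genes were named after their values were seen, as stated there. For a symbol on several entries, the entry with most counts was taken. Coordinates and exons are from GENCODE 29 (GRCh38, which is hg38) through Ensembl identifiers, and starts and sequences from RefSeq (GRCh38.p14), matched by symbol. Alternatives were RLE factors, library totals, other count filters, DESeq2 1.42.0, limma-voom and limma 3.58.1 on log2(FPKM + 1) or log2(FPKM + 0.1) for entries with FPKM of at least 1 in 3 libraries, a stricter threshold of 0.01, the replicate number as a block, and leaving out each library. For class shares, they were read counts, filtered rows and, chosen after seeing the data, counts per kilobase of GENCODE exons.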

Additional observations from a re-analysis of the deposited data

How the results depend on the processing

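Counting each tested collagen under each alternative, 367 values kept their side of the threshold, 23 lost the call and 4 gained it. No called collagen changed direction, and PGK1 passed in all 16 alternatives. The count of collagens called lower, 6 as reported, was 3 at an adjusted p under 0.01 and ranged from 3 to 6 when 1 library was left out, the lowest without WT replicate 3. The count called higher, 9 as reported, ranged from 9 to 11 without 1 library, the highest without WT replicate 1. The fibrillar share of collagen was 7.33% in WT and 6.09% in PGK1_OE by read counts, and 7.59% and 6.45% per kilobase of GENCODE exons. The basement membrane share was 31.2% in WT and 31.1% in PGK1_OE by read counts, and 22.9% and 24.7% in WT and PGK1_OE per kilobase. Its FPKM shares differed in mean (29.04% and 31.4%) but overlapped between groups, and the gap in means was not seen by read counts. The share of other types was 61.5% in WT and 62.8% in PGK1_OE by read counts, and 69.5% and 68.9% per kilobase. COL6A3 lost its call on both FPKM scales (adjusted p = 0.0723 and 0.0751), where FPKM per CPM differed between its libraries, and COL7A1 was 0.78 on the log2(FPKM + 1) scale, which understates low genes. With the replicate number as a block 10 collagens rose and 5 fell (9943 entries called in all). COL9A2 then missed the threshold (adjusted p = 0.105) and COL6A5 passed (0.0462). Deviations of same-numbered libraries correlated at -0.0134, -0.0129 and 0.0952, and WT replicate 1 correlated best with PGK1_OE replicate 2 (0.0701), so the numbers were not taken as pairs. Genes under 1 FPKM are limited by depth.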
